A study of Mus musculus with 6 samples.

Results

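Transcripts of 38 genes that carry cells from G1 into S phase and copy their DNA were followed in the RET line, a cultured mouse melanoma line whose labels give the strain C57BL\6. The list holds 40 genes chosen by name, of 22180 named genes on the array. A gene was taken at the transcript cluster that the platform annotation pairs with its symbol alone, and at the brightest such cluster where there were several. The cyclin gene Ccne2 and the clamp loader gene Rfc4 have no such cluster and were not analysed here. The control cells carried a non-targeting short hairpin RNA (shRNA; 3 cultures, titled GFP), and the other cells carried Angpt2 shRNA-1 (3 cultures), the single hairpin used here against Angpt2, whose product is secreted and binds Tek, a receptor of blood vessel cells. These are called control and silenced cells below. Every culture was grown for 24 h in serum-containing medium from an equal number of seeded cells. The labels do not say whether either set of cells was a pool or a clone, and no second hairpin or rescue was analysed, so that loss of Angpt2, other effects of this hairpin and differences between the cell sets cannot be told apart. The labels call the samples biological replicates, and each had its own array.

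In G1, cyclin D and then cyclin E drive the phosphorylation of the retinoblastoma protein, which frees E2F transcription factors to switch on the genes of S phase. Replication origins are licensed when the origin recognition complex, Cdc6 and Cdt1 load the ring of Mcm2 to Mcm7 onto DNA, and the ring becomes an active helicase once Cdc45 and the GINS complex join it. Polymerase alpha with primase then starts each strand, polymerases delta and epsilon extend it on the sliding clamp PCNA, and the supply of deoxynucleotides sets how fast forks can run. Many of these genes are known E2F targets, and in growing tumour cells their transcripts are widely read as a measure of the share of cells near or in S phase.

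The promoters were searched for sequence motifs. The genes were chosen by name and many are known E2F targets, so their share of E2F matches is not independent of the choice. RefSeq promoter windows (GRCm38.p6, 250 bases before to 50 after each start) matched 30 of the 38 genes by symbol. The E2F motif was searched on both strands as TTTCGCGC, TTTGGCGC, TTTCCCGC and TTTGCCGC, and overlapping matches were counted separately. At least 1 match stood in a window of 14 of these 30 genes (46.7%, exact 95% binomial interval 28.3 to 65.7%), against 3.26% of 16990 tested genes with a window. The CCAAT box, searched as CCAAT, stood in 63.3% of the 30 genes and 41.6% of the tested genes, and the CHR element of mitotic genes, searched as TTTGAA, in 16.7% and 17.8%. A match describes letters and is not a shown binding site.

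The 150 bases before the start of 5 of these promoters are given 5′ to 3′ on the gene's strand with E2F matches in capitals. Mcm6 is shown because its window holds the most matches of any listed gene (3, a pair of which overlap), Orc1, Cdc6 and Pola1 because they stand for origin licensing and strand initiation with 1 match each, and Tyms because it alone among the 38 genes had an unadjusted p under 0.05, and its window holds none of these letters. The minus strand holds Mcm6, Pola1 and Tyms and the plus strand holds Orc1 and Cdc6.
Mcm6, chr1:128359706-128359855: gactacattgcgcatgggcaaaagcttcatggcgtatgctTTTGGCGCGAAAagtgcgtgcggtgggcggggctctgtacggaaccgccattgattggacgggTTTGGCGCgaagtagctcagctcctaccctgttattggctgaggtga
Orc1, chr4:108579304-108579453: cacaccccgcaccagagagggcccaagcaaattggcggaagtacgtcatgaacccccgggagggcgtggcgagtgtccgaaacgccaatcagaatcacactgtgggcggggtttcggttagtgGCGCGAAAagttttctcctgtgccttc
Cdc6, chr11:98908001-98908150: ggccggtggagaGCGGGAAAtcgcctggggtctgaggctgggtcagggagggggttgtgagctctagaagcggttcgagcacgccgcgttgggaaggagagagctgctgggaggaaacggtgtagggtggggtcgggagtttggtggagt
Pola1, chrX:93632156-93632305: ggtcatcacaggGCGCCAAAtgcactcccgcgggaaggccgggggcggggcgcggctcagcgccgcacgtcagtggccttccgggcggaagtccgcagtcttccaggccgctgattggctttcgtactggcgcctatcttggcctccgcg
Tyms, chr5:30073626-30073775: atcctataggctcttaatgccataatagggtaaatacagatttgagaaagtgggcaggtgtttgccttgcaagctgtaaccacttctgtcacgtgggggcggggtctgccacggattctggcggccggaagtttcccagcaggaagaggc

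RNA was hybridised to Affymetrix Mouse Gene 2.0 ST arrays, and the deposited values are normalized intensities on a linear scale, with array medians from 74.5 to 76.2 over all clusters. Angpt2, the target of the hairpin, had intensities of 195, 372 and 326 on control replicates 1, 2 and 3 and of 100.2, 122 and 122 on silenced replicates 1, 2 and 3, so that the groups did not overlap (limma log2 fold change -1.33, SE 0.21, adjusted p = 1.00, and adjusted p = 0.046 when blocked on the replicate number). With all arrays its unadjusted limma p was 0.00014, and its log2 fold change was the lowest of all 22180 tested genes. The absence of a call in that fit therefore does not show that a gene was unchanged. Without control replicate 1 Angpt2 was at -1.61 with a limma adjusted p of 0.0116. The melanocyte identity of the line was visible on every array, with 9 of 10 lineage markers above an intensity of 150, among them Tyrp1, Dct, Pmel and Mlana, while Ednrb was dim (63.0 to 87.9). All 6 endothelial markers, 6 of 7 leukocyte markers, 5 of 7 fibroblast markers and 3 of 4 epithelial markers averaged below 100, and their part in the results was not tested. All 38 genes of the list lay above the median level of the tested genes, and their lowest single value was 113 (Orc1 on control replicate 1). The table has no detection calls, and the number of arrays limits the precision. Control replicate 1 stood apart for several gene lists, as described below, and values without it are given for the genes it moved most.

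No G1/S or replication gene passed the test between silenced and control cells. The limma fit over 22180 genes called 0 of the 38, against a background of 0% of all tested genes at an adjusted p of 0.05. At an unadjusted p under 0.05 it gave 1 of 38 (Tyms, higher in silenced cells), against 3.76% of all tested genes (1.52% higher and 2.24% lower). A fit that blocked on the replicate number called 0 of 38, against 0.00902% of all genes (2 genes). The silenced cells had the higher mean for 24 of 38 genes (63.2%, against 45.2% of all tested genes), with a median log2 fold change of 0.03 against -0.01 over all genes. Without control replicate 1 the count was 12 of 38 (31.6%, against 47.0% of all genes) and the median -0.05, so the direction of the list turned with that array.

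The limits that the data set on a change were narrow for most of the list, as for most tested genes. The group means of 33 of the 38 genes differed by less than 1.1-fold (17569 of all 22180 tested genes). The exceptions were Lig1, Tyms, Ccne1, Fen1 and Pola2. For 35 genes the 95% interval of the fit lay within 1.5-fold to either side of no difference (21281 of all 22180). The intervals of Ccnd1, Lig1 and Tyms reached beyond it. Intervals extended a median of 0.25 (log2) from their estimates, which is 1.19-fold. Over all tested genes this was 0.23, or 1.17-fold. Silenced and control arrays were fully separated for 2 of 38 genes, Tyms and Mcm7, against a background of 9.01%. In both the silenced cells were higher (3.53% of all genes), and no member was separated the other way (5.48%).

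**Figure D1:**
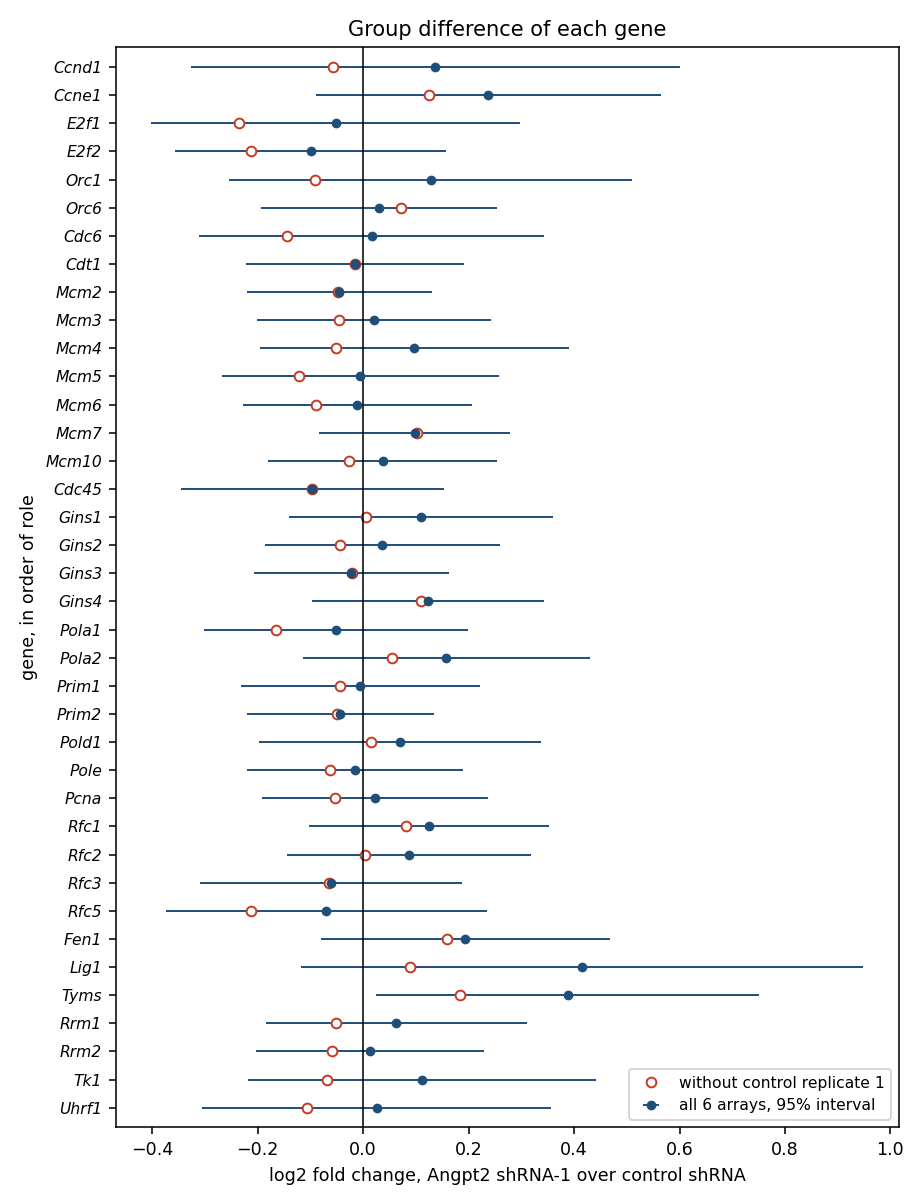
Log2 fold change of silenced over control cells (horizontal axis) for each of the 38 genes, in order of role; filled points with 95% intervals use all 6 arrays and open points leave out control replicate 1. The interval of Tyms alone excludes 0, and for most genes the open point lies to the left of the filled one.

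Among the drivers of G1 exit, both directions occurred. Ccne1, the gene of cyclin E1, had intensities of 441, 666 and 465 on control replicates 1, 2 and 3 and of 601, 621 and 601 on silenced replicates 1, 2 and 3. The silenced arrays were tightly placed, but control replicate 2 exceeded all of them. Log2 levels were 9.01 ± 0.32 in controls and 9.25 ± 0.03 in silenced cells (SD, n = 3 arrays each), a difference of 0.24 (SE 0.15) that did not pass (limma adjusted p = 1.00) and that was 0.13 without control replicate 1. Ccnd1, the gene of cyclin D1, which links growth signals to the cell cycle, read 1064, 1977 and 1279 in controls and 1583, 1714 and 1317 in silenced cells. Controls 1 and 2 were the lowest and the highest of all arrays, which left a log2 fold change of 0.14 with a 95% interval from -0.33 to 0.60, or -0.06 without control replicate 1.

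The E2F activators lay on the other side. E2f1 read 306, 482 and 417 in controls and 349, 392 and 403 in silenced cells, with the silenced arrays close together. E2f2 read 163, 218 and 195 in controls and 179.9, 186 and 169 in silenced cells. For both genes the silenced arrays fell between control replicates 1 and 2, and the log2 fold changes were -0.05 (SE 0.15) and -0.10 (SE 0.11), neither past the test (limma adjusted p = 1.00). Without control replicate 1 they were -0.24 and -0.21. All 4 measured genes of this role had their lowest value on control replicate 1 and their highest on control replicate 2.

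Origin licensing genes lay close together in both groups. All 10 group means differed by less than 1.1-fold, 6 with the higher mean in silenced cells and 4 with the lower. None passed the test, and all 10 intervals stayed within 1.5-fold. Orc1, the largest subunit of the origin recognition complex, read 113, 167 and 189 in controls and 159, 174 and 168 in silenced cells. Its difference of 0.13 (SE 0.17) on the log2 scale came with 1 low array, control replicate 1, and without it the value was -0.09. Orc6, a smaller subunit, ran from 528 to 638 over the 6 arrays, with a difference of 0.03 (SE 0.10). Cdc6, which joins the complex at origins, ran from 530.3 to 784 (0.02, SE 0.15, and -0.15 without control replicate 1). Its partner Cdt1, which geminin holds in check, ran from 938 to 1129 (-0.02, SE 0.09) and was not low on control replicate 1, unlike Orc1 and Cdc6.

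The subunits of the Mcm2 to Mcm7 ring, which work as 1 complex, differed in how much they varied over the 6 cultures. Mcm3, Mcm4, Mcm5 and Mcm6 shared control replicate 1 as their lowest array, and Mcm2 and Mcm7 did not. Mcm2 was among the steadiest genes of the list, with 2554, 2646 and 2492 in controls and 2481, 2493 and 2478 in silenced cells, a ratio of 1.07 between its highest and lowest array. Mcm4 varied most, with 1211, 1560.2 and 1748 and 1539, 1640.2 and 1602, a ratio of 1.44, and control replicate 1 was again the low array. Mcm7 had slightly higher values on every silenced array (1310.1, 1331 and 1268 against 1393, 1452 and 1339.8; log2 fold change 0.10, SE 0.08, limma adjusted p = 1.00). The closest arrays, control replicate 2 and silenced replicate 3, differed by little, and they overlapped once each array was centred on its median. Mcm3 ran from 1596 to 1898, Mcm5 from 1408 to 1882 and Mcm6 from 1649 to 1952, each lowest on control replicate 1. Their log2 fold changes were 0.02, -0.01 and -0.01, and that of Mcm4 was 0.10 (SE 0.13). With that array left out these 4 were -0.05, -0.12, -0.09 and -0.05, and Mcm7 was 0.10.

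**Figure D2:**
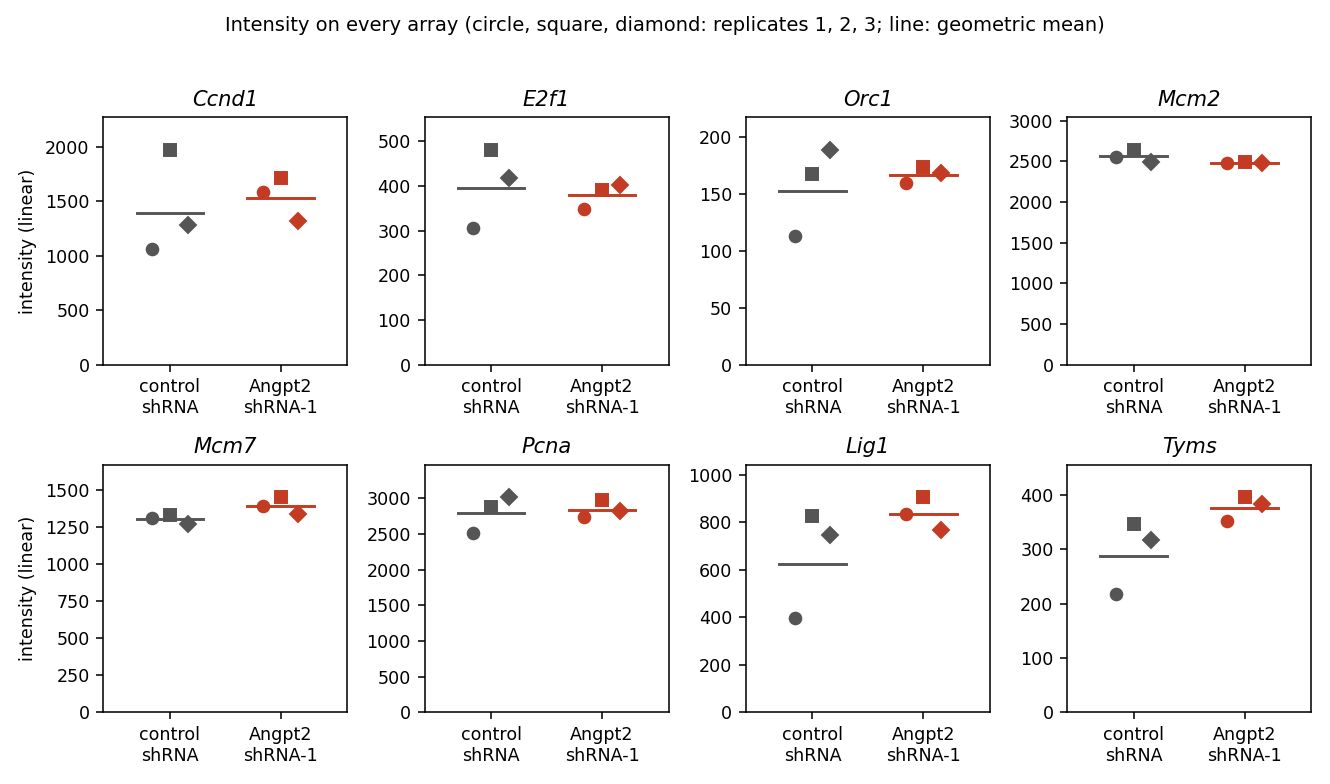
Linear intensity (vertical axes, from 0) of 8 genes on each control and silenced array; marker shapes give the replicate number and lines the geometric mean of 3 arrays. Control replicate 1 (circle) is the lowest array for Ccnd1, E2f1, Orc1, Pcna, Lig1 and Tyms, and Mcm2 and Mcm7 differ little between arrays.

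Genes that turn the loaded ring into a helicase gave 4 higher and 2 lower means in silenced cells, and 0 of 6 passed. Gins4, a GINS subunit, read 565, 543 and 623 in controls and 667, 649 and 569.8 in silenced cells (log2 fold change 0.12, SE 0.10). Silenced replicates 1 and 2 were above all controls, and silenced replicate 3 was not. Cdc45 read 535, 492 and 581 and 440.3, 557 and 510.1 (-0.10, SE 0.11), with its lowest value on silenced replicate 1 and its highest on control replicate 3. Mcm10, which acts at helicase activation, ran from 761 to 923 (0.04, SE 0.10). Of the other GINS subunits, Gins1 ran from 291 to 384 (0.11), Gins2 from 228 to 282 (0.04) and Gins3 from 398 to 435 (-0.02). Gins1 and Gins2 were lowest on control replicate 1, without which they were at 0.00 and -0.04, and Gins3 and Gins4 were not.

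Of the 6 polymerase and primase genes, 2 had the higher mean in silenced cells and 4 the lower. Pola2, the accessory subunit of polymerase alpha, read 596, 759 and 718 in controls and 826, 811 and 673 in silenced cells (0.16, SE 0.12, limma adjusted p = 1.00). Pola1, the catalytic subunit of the same enzyme, read 435, 552 and 548 and 471, 521 and 481 (-0.05, SE 0.11). Pola2 was at 0.05 and Pola1 at -0.17 without control replicate 1. The subunits thus had estimates of opposite sign, each with an interval that includes 0. Among the primase genes, Prim1 ran from 733 to 893 (-0.01, SE 0.10) and Prim2 from 1362 to 1488 (-0.04, SE 0.08), and both were lowest on silenced replicate 1. Pold1 and Pole, the catalytic subunits of the extending polymerases, were lowest on control replicate 1. Pold1 ran from 521 to 667 (0.07, SE 0.12) and Pole from 549 to 647 (-0.02, SE 0.09).

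The sliding clamp and its loader were also close between groups. Pcna read 2517, 2881 and 3014 in controls and 2732, 2977 and 2818 in silenced cells, a log2 fold change of 0.02 with a 95% interval from -0.19 to 0.24. Rfc1, the large subunit of the loader, read 601, 666 and 650.0 and 616, 729 and 753 (0.13, SE 0.10), with silenced replicates 2 and 3 above all controls. Rfc5 read 363, 449 and 530.3 and 439, 389 and 437 (-0.07, SE 0.13), with control replicate 3 the highest. Rfc2 ran from 655 to 836 (0.09, SE 0.10) and Rfc3 from 282 to 361 (-0.06, SE 0.11). Control replicate 1 was the lowest array for all of these but Rfc3. Without it Pcna was at -0.05, Rfc1 at 0.08, Rfc2 at 0.00 and Rfc5 at -0.21. None of the 5 passed the test.

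The largest estimates were those of single genes, Lig1 of lagging strand completion and Tyms of thymidylate supply. Lig1, the ligase that joins Okazaki fragments, read 397, 825 and 745 in controls and 835, 905 and 765 in silenced cells. Control replicate 1 had less than any other array, and the remaining controls lay within or near the silenced range. The ratio of means was 1.33-fold, from log2 levels of 9.29 ± 0.57 in controls and 9.70 ± 0.12 in silenced cells (SD, n = 3 arrays each). On the log2 scale the difference was 0.42 (SE 0.24), and it did not pass (limma adjusted p = 1.00). Without control replicate 1 it was 0.09, and within replicates 1, 2 and 3 it was 1.07, 0.13 and 0.04. Fen1, the flap nuclease that acts just before the ligase, read 386, 375 and 461 and 522, 474 and 404 (0.19, SE 0.12), and a dimmer second Fen1 cluster gave -0.21.

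Tyms, the thymidylate synthase, read 217, 347 and 317 in controls and 352, 396 and 383 in silenced cells. Every silenced array was above every control, although silenced replicate 1 exceeded control replicate 2 by little. The silenced mean was 1.31-fold higher (log2 levels of 8.17 ± 0.36 in controls and 8.56 ± 0.09 in silenced cells, SD, n = 3 arrays each). This is a log2 difference of 0.39 (SE 0.16) with a 95% interval from 0.02 to 0.75. The limma p was 0.039 before adjustment, and the adjusted p over all genes was 1.00. The exact permutation p of 3 against 3 arrays cannot go below 0.1, two-sided. The difference was 0.70, 0.19 and 0.27 within replicates 1, 2 and 3, and 0.18 without control replicate 1, where its limma adjusted p was 0.992. The other genes of nucleotide supply did not pass either. Tk1, the salvage thymidine kinase, read 722, 1054 and 1041 and 934, 1078 and 991 (0.11, SE 0.15), with control replicate 1 the lowest, and -0.07 without it. Rrm1, the large subunit of ribonucleotide reductase, ran from 2165 to 2762 (0.06, SE 0.11). Rrm2, the subunit made in S phase, read 2018, 2429 and 2270.4 in controls and 2153, 2377 and 2238 in silenced cells (0.01, SE 0.10). Uhrf1, which brings DNA methylation to newly copied strands, read 1277, 1888 and 1492 in controls and 1587, 1729 and 1381 in silenced cells (0.03, SE 0.15, and -0.11 without control replicate 1).

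A single control culture stood below the others for most of the list. Control replicate 1 held the lowest value of the 6 arrays for 27 of the 38 genes (71.1%), against 19.5% of all tested genes and 24.1% of those above the median level. It held the highest value for none of the 38, against 25.8% of all tested genes and 26.9% of those above the median level. Deviations from each gene's mean over the 6 arrays had a median of -0.17 on that array, against 0.07 and 0.06 on controls 2 and 3 and 0.00, 0.09 and -0.02 on silenced replicates 1, 2 and 3. The genes farthest below the median of the other 5 arrays there were Lig1 (-1.05), Tyms (-0.70) and Orc1 (-0.58), followed by Ccnd1 (-0.57) and Tk1 (-0.53). Mcm2, Cdt1, Orc6, Prim2, Gins3, Rfc3 and Cdc45 were not below their own mean on this array. By role the median deviation on control replicate 1 was -0.34 for G1 drivers and for nucleotide supply, and -0.15 for licensing. It was -0.16 for the clamp and its loader, and -0.12 for helicase activation and for polymerases. Of the lagging strand genes, Lig1 was at -0.86 and Fen1 at -0.17.

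**Figure D3:**
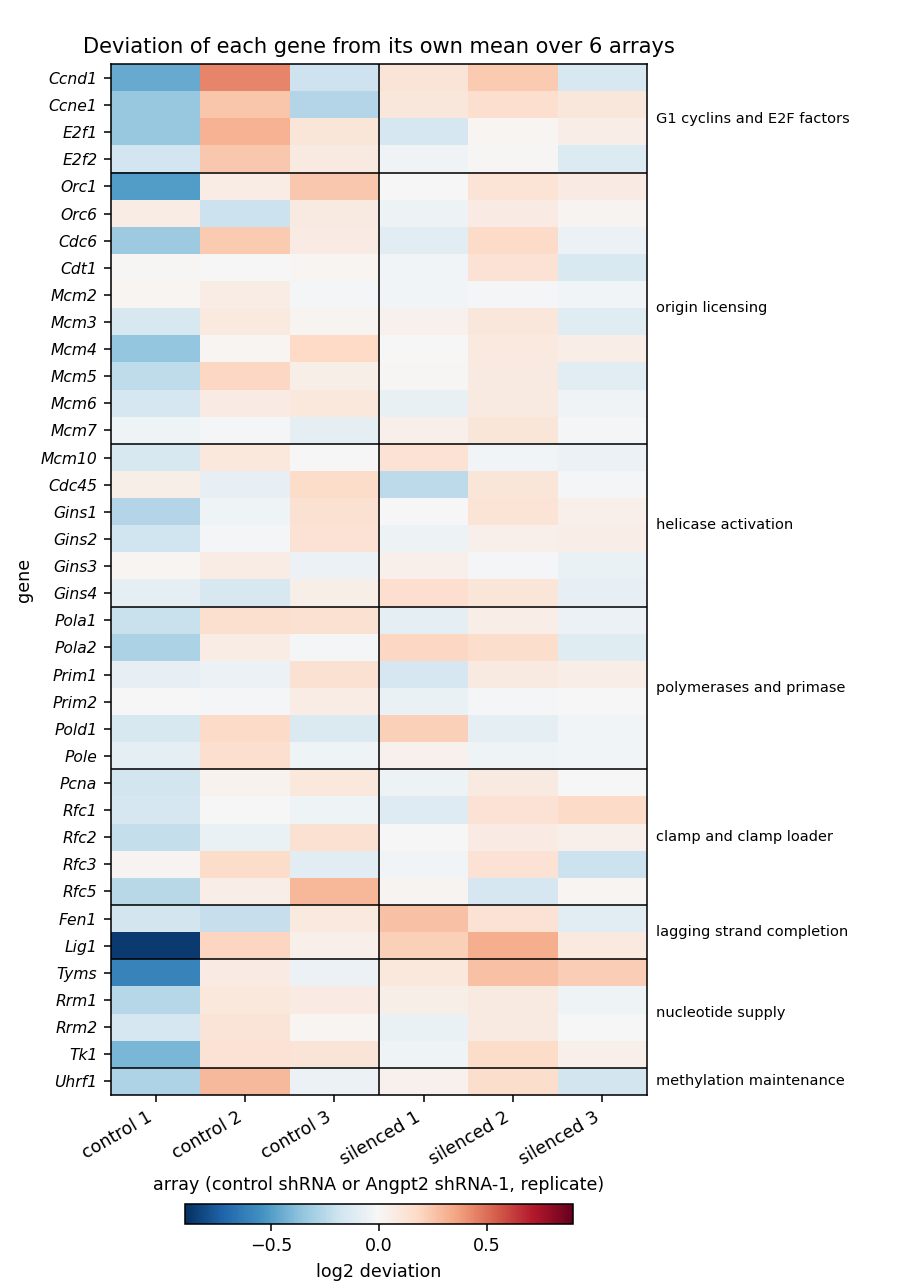
Log2 deviation of each of the 38 genes (rows, grouped by role) from its own mean over the 6 arrays (columns); blue is below and red above the mean. The column of control replicate 1 is blue for 31 of 38 genes, and that of control replicate 2 is the reddest for the G1 cyclin and E2F genes.

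The highest values were also unevenly placed. Control replicate 2 held them for 14 of the 38 genes (36.8%, against 21.4% of all tested genes), control replicate 3 for 12, and the 3 silenced arrays for 12 together. Matching the replicate numbers, the silenced culture exceeded its control for 31 of 38 genes in replicate 1, 21 in replicate 2 and 8 in replicate 3, with median differences of 0.20, 0.01 and -0.09 on the log2 scale. Over all tested genes these medians were -0.03, -0.02 and 0.00.

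The genes of the list were often high and low on the same arrays. Over 703 pairs of genes the median Pearson correlation across the 6 cultures was 0.43, against 0.00 over pairs of genes above the median level and 0.01 over pairs of all tested genes, where all genes of a culture share 1 RNA sample and 1 array. Without control replicate 1 the median was 0.17, and leaving out any other single array gave 0.44 to 0.51. Within roles it was highest for nucleotide supply (0.86, and 0.31 without control replicate 1) and for G1 drivers (0.73 and 0.50), and lower for licensing (0.26 and 0.33), the clamp and its loader (0.31 and 0.20), polymerases and primase (0.38 and -0.09) and helicase activation (0.27 and -0.05). Measured the same way, the median was 0.21 (0.19 without control replicate 1) for the other S phase genes, 0.57 (0.15) for G2/M genes and 0.83 (0.78) for ATF4-CHOP genes. For 26 further genes around the restriction point it was 0.12 (0.20), and for 7 inhibitors of cyclin-dependent kinases -0.19 (-0.18). The median deviation on control replicate 1 was -0.16 for the 14 genes with an E2F match in a promoter window and -0.17 for the 16 without. Of these, 10 and 11 had their lowest value on that array. This split follows the searched letters alone, and the genes without a match include E2f1, Ccne1, Pcna and Tk1. It does not sort the genes by whether E2F regulates them, which was not tested.

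Other genes of the cycle were read from lists chosen by function. Of 44 further S phase and replication genes 0 passed the test, with 23 higher and 21 lower means (median log2 fold change 0.01), and 4 (9.09%, against 3.76% of all tested genes) had an unadjusted limma p under 0.05. Control replicate 1 was the lowest array for 22 of the 44, and without it 18 means were higher and 26 lower (median -0.022). The groups did not overlap for 6 of the 44 (13.6%, against 9.01% of all tested genes). Gmnn, the gene of geminin, which blocks relicensing through Cdt1, read 154, 183 and 186 in controls and 199, 223 and 216 in silenced cells (0.29, SE 0.10, limma adjusted p = 1.00). Dscc1, a subunit of an alternative clamp loader, read 278, 238 and 261 and 195, 216 and 195 (-0.36, SE 0.09), Donson, a replication fork factor, was at -0.27 (SE 0.10) and the repair gene Brca1 at -0.21 (SE 0.09). These 4 genes are among the 6 without overlap, and their differences kept their sign without control replicate 1 (0.20, -0.30, -0.35 and -0.22).

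Of 26 further genes around the restriction point 0 passed, with 11 higher and 15 lower means (median -0.03), and the largest difference was 0.25 (SE 0.17) for the cyclin gene Ccnd3. On control replicate 1 the median deviation of the 26 was -0.07. That array was the lowest for 12 of them (46.2%, against 19.5% of all tested genes) and the highest for 7 (26.9%, against 25.8%). Of 7 genes of inhibitors of cyclin-dependent kinases 0 passed either, with Cdkn1a, the gene of p21, at 0.16 (SE 0.11), Cdkn1b, the gene of p27, at -0.04 (SE 0.21) and Cdkn2b, the largest in size, at 0.17 (SE 0.10). Cdkn1a and Cdkn1b were named after their values were seen. Over the 7 genes 4 means were higher and 3 lower, with log2 fold changes from -0.16 to 0.17 (median 0.05). The groups did not overlap for 1 of the 7, which was lower in silenced cells (14.3%, against 9.01% of all tested genes). On control replicate 1 the median deviation of the 7 was 0.014, and 1 of them (Cdkn1b) had its highest value there. Of 29 G2/M and mitosis genes 25 had the higher mean in silenced cells (median 0.09) and 0 passed. Control replicate 1 was their lowest array in 21 of 29, and without it 19 of 29 were higher (median 0.015). The largest difference was that of the spindle checkpoint kinase gene Ttk (0.28, SE 0.14).

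Genes of the ATF4-CHOP stress response, which answers amino acid shortage and protein folding stress, were placed the opposite way over the control cultures. Their median deviation was 1.05 on control replicate 1 and -0.78 on control replicate 2, and -0.13, 0.03, -0.51 and 0.24 on control replicate 3 and silenced replicates 1, 2 and 3. Of the 16 genes, 13 had their highest value on control replicate 1 (81.25%, against 25.8% of all tested genes). On control replicate 2, 11 had their lowest (68.75%, against 19.1%). The test between groups was passed by 0 of the 16. The silenced mean was the lower for 13 of 16 (median -0.13), and without control replicate 1 it was the higher for 15 of 16 (median 0.21). Slc7a11, the cystine transporter gene with the largest difference, read 1184, 215 and 233 in controls and 327, 166 and 308 in silenced cells (-0.61, SE 0.58, and 0.20 without control replicate 1). Whether this response, the RNA sample or the array has a part in the low replication transcripts of that culture was not tested. In these bulk samples fewer cells in S phase and less of each transcript per cell cannot be told apart.

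**Figure D4:**
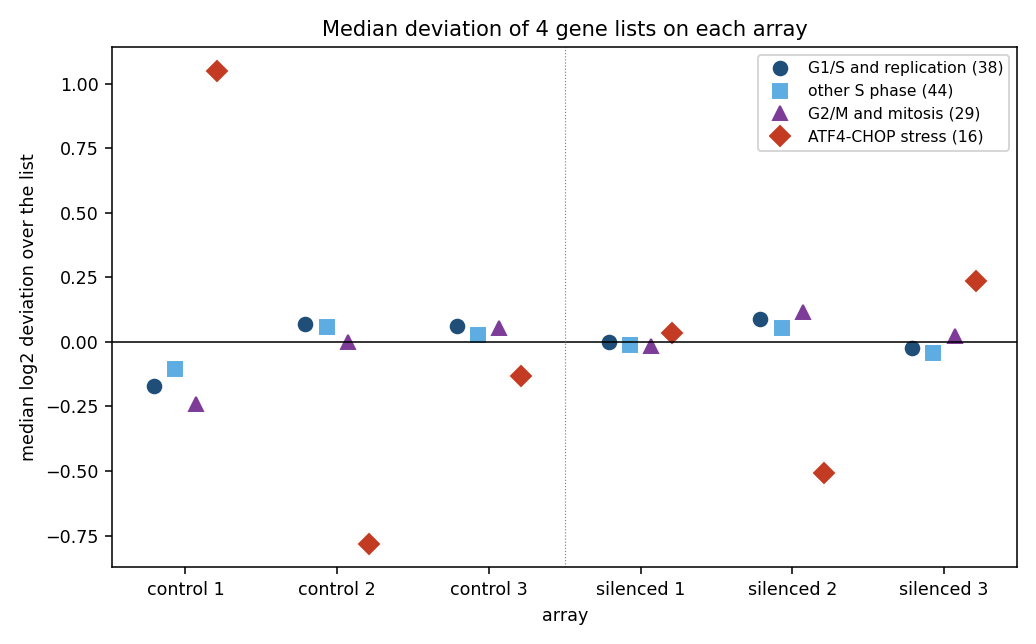
Median log2 deviation from each gene's mean over the 6 arrays (vertical axis) for 4 gene lists on each array (horizontal axis), with the number of genes in brackets. On control replicate 1 the 3 cell cycle lists lie below 0 and the stress list at 1.05, and on control replicate 2 the stress list is at -0.78.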

How the data were processed

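Total RNA (100 ng per sample) was labelled with biotin and hybridised to 1-colour arrays, per the labels' protocols. The authors deposited intensity values, already normalized, for each transcript cluster, and their linear scale was read from the range (28.1 to 12624). Their background correction, summarization, normalization and genome build are not given in the sources used here. Of 41345 clusters 40425 had a value on all 6 arrays. The platform annotation gave exactly 1 symbol for 23521, several for 1814 and none for 16010, which left 22180 genes at their brightest cluster.

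The log2 of each value was taken with no pseudocount. The comparison of groups used limma 3.58.1 in R 4.3.3 (lmFit, eBayes), with Benjamini-Hochberg adjustment over all genes and a threshold of 0.05. The fit was tested on simulated data. Each limma p-value sets the group difference against the variation between cultures of a group, moderated over all genes, and speaks only for these cultures. Replicate numbers 1, 2 and 3 are shared by the groups. Deviations from the group mean correlated at 0.13, 0.21 and 0.14 across genes for same-numbered arrays, each above 0.1. For arrays of unlike numbers in the 2 groups they correlated at -0.19 to 0.06. The labels do not say what a number shares. The reported fit has no block, and the block is an alternative. The members and lists were chosen with earlier results of these data known. Named genes are all measured members, Angpt2, and from each further list the members at an unadjusted p under 0.05, otherwise the one with the largest difference. Alternatives were the block, quantile normalization, median centring, filters on dim genes (median, 33rd percentile), averaging clusters, trend and robust options, array weights, a pseudocount of 16 and arrays left out.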

Additional observations from a re-analysis of the deposited data

How the results depend on the processing

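None of the 38 genes was called under any alternative run. Over all genes the count moved from 0 to 2 with the replicate number as a block (Angpt2 the one reported here), to 1 with trend and robust options, and to between 0 and 2 with arrays left out. The block changed no other call reported here. Angpt2 was also called without control replicate 1 and without both arrays of replicate 1. The count of members with the higher silenced mean ranged from 12 (without control replicate 1) to 30 (without control replicate 2), and the median correlation over pairs from 0.17 (without control replicate 1) to 0.51 (without control replicate 3). Centring on array medians left 1 member, Tyms, whose groups did not overlap. Array weights, which were lowest for control replicate 1 (0.55), turned Cdc6 to -0.010, Gins2 to -0.0061 and Pcna to -0.0044, and averaging all clusters turned Pole to 0.10 and Fen1 to -0.0091.

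With 1 array, or both arrays of a number, left out, 24 members changed sign, all of them uncalled, and the cause was not tested. The log2 fold change of Ccnd1 ranged from -0.081 to 0.39, E2f1 from -0.24 to 0.092, Orc1 from -0.092 to 0.28, Orc6 from -0.087 to 0.10, Cdc6 from -0.15 to 0.14, Cdt1 from -0.091 to 0.052, Mcm3 from -0.060 to 0.10, Mcm4 from -0.052 to 0.21, Mcm5 from -0.13 to 0.087, Mcm6 from -0.089 to 0.045, Mcm10 from -0.084 to 0.11, Gins2 from -0.044 to 0.11 and Gins3 from -0.053 to 0.011. Pola1 ranged from -0.17 to 0.016, Prim1 from -0.075 to 0.068, Pold1 from -0.074 to 0.23, Pole from -0.087 to 0.070, Pcna from -0.053 to 0.083, Rfc3 from -0.14 to 0.020, Rfc5 from -0.24 to 0.061, Rrm1 from -0.062 to 0.15, Rrm2 from -0.059 to 0.075, Tk1 from -0.068 to 0.21 and Uhrf1 from -0.12 to 0.18. Outside the list, Slc7a11 ranged from -1.11 to 0.20. The 13 members that kept their sign under all alternatives run were Ccne1, E2f2, Mcm2, Mcm7, Cdc45, Gins1, Gins4, Pola2, Prim2, Rfc1, Rfc2, Lig1 and Tyms.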

Other observations

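Second, dimmer clusters of 3 members did not enter the reported fit. They entered the alternative that averaged clusters, and the value of the Fen1 cluster is also given above. The second Rrm2 cluster had intensities from 129.8 to 264 over the 6 arrays and a log2 difference of 0.04 between silenced and control means, close to the 0.01 of the brighter cluster. The second Fen1 cluster (100.5 to 164) gave -0.21 where the brighter one gave 0.19, so that the clusters of this gene disagree in sign. The second Pole cluster (58.2 to 79.8) gave 0.23 against -0.02, at intensities near the array medians, where signal cannot be told from background without detection calls.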
